A study of Rattus norvegicus with 16 samples.

Results

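The 10 genes described here encode the invariant chains of the T-cell receptor complex (Cd3d, Cd3e, Cd3g and Cd247), the co-receptors (Cd4, Cd8a and Cd8b) and the first kinases and adaptor of the receptor signal (Lck, Zap70 and Lat). They were picked out by symbol, as members of one pathway, and the rule uses no measured value. All 10 were found, each as a single entry, among the 18031 genes that every count file lists. The values come from whole blood of 16 adult male Sprague-Dawley rats aged 85 to 90 days. All belonged to the one group labelled Saline Control: they had 4 injections of saline at 1 ml/kg, given 2 h apart, were without food and water over that period, and were killed 3 h after the last injection. No untreated or drug-treated rats were analysed here, so the values describe how the genes vary among like-treated animals, each of which gave 1 library. The study dosed its controls in separate experiments on different dates, and the labels do not say which rat belongs to which. Blood was taken by cardiac puncture and depleted of globin mRNA, and no cells were sorted, so every value is an average over all blood cells. The rats are numbered controls 1 to 16.

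The T-cell receptor recognises peptide on MHC molecules but has no signalling tail of its own. That function lies in the CD3 chains and in the CD247 (zeta) chain, whose tails carry tyrosine motifs. CD4 or CD8 binds the MHC molecule and brings the kinase LCK to the complex, LCK phosphorylates the motifs, ZAP70 docks there and phosphorylates the membrane adaptor LAT, and LAT then assembles the downstream signalling proteins. In blood the CD3 genes mark T cells, whereas CD247, LCK, ZAP70 and LAT are also made by natural killer (NK) cells, LAT by platelets, CD4 by monocytes of the rat, and CD8A by rat NK cells.

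The libraries held 21466776 to 31189549 estimated counts. Globin genes still took 2.96% to 15.5% of them and the 10 genes together 0.0300% (control 8) to 0.127% (control 12). Levels are given as normalized counts, that is, estimated counts divided by the DESeq2 size factor of the library. A pair of libraries stood apart in the thymocyte or the neutrophil genes and are named beside the results they touch. Control 12 was highest in 7 of the 8 listed thymocyte genes, with Rag1, a recombinase of developing lymphocytes, at 4189 normalized counts there and at most 23.4 elsewhere. Control 8 was highest in all 10 neutrophil genes, with a summed level of 1.17e+06 normalized counts against a median of 215076 over the 16 libraries.

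Each chain of the receptor complex varied by less than 3-fold over the 16 rats. Cd3d, the delta chain, ranged from 932 normalized counts in control 8 through a median of 1338 to 2548 in control 12, with a mean of 1421 ± 440 (SD, n = 16). Cd3e, the epsilon chain, which pairs with the delta or the gamma chain, ranged from 1014 in control 8 through 1746 to 2772 in control 12 (1848 ± 545). Cd3g, the gamma chain, ranged from 1304 in control 8 through 1832 to 3255 in control 12 (1922 ± 512). The same pair of libraries thus held the lowest and the highest level of all 3 genes, and control 3 held the second highest. Without control 12 the mean of Cd3d was 1345 ± 333 (n = 15). Cd247, which carries most of the tyrosine motifs of the complex, had the smallest spread of the 10 genes, with a coefficient of variation (CV) of 20.5%. It ranged from 1299 in control 9, with control 8 at the same rounded value, through 1771 to 2482 in control 3, and control 12 was second highest at 2306. In unsorted blood, fewer T cells and less RNA per T cell cannot be told apart, and this holds for every level below.

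Cd3g, Cd3d and Cd3e follow one another on rat chromosome 8, with no other protein-coding RefSeq gene between them, whereas Cd247 is on chromosome 13 (RefSeq GRCr8). Their promoter windows are shown because the levels of these 4 genes, the 3 neighbours and the distant Cd247, were correlated with an r of 0.748 to 0.946 over the libraries, as described further on. Each window holds 250 bases before to 50 after the annotated start, in RefSeq build GRCr8, read along the strand of the gene. The regions are chr8:54185269-54185568 (plus strand) for Cd3d, chr8:54211721-54212020 (minus strand) for Cd3e, chr8:54183869-54184168 (minus strand) for Cd3g and chr13:80576019-80576318 (plus strand) for Cd247. Capitals mark AGGAAG or its reverse complement CTTCCT, a core bound by ETS family factors.
Cd3d: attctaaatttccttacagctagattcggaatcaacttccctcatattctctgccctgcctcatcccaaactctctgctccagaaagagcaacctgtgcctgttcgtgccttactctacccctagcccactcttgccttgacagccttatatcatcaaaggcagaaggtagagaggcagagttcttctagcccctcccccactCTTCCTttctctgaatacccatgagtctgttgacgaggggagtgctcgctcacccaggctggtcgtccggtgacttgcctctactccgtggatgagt
Cd3e: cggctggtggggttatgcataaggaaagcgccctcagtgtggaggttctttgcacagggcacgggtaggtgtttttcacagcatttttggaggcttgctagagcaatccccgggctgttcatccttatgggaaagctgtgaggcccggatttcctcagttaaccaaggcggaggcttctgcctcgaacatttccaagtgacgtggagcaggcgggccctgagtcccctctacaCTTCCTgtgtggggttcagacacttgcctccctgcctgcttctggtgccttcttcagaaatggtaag
Cd3g: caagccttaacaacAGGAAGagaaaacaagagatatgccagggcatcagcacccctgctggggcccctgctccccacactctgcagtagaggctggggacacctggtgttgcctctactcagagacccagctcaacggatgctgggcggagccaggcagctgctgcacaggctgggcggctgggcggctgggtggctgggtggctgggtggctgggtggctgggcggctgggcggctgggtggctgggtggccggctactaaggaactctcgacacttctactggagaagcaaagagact
Cd247: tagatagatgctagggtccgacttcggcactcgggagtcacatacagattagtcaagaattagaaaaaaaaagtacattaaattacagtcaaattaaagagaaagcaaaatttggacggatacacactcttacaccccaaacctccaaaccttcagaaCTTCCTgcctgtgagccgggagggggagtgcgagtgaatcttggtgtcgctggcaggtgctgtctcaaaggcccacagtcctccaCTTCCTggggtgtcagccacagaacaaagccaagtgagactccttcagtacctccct
The start of Cd3g lies close to that of Cd3d on the opposite strand. The table held windows for 8 of the 10 genes, 9 windows in all since Lck has 2 annotated starts, and none for Cd4 and Cd8b. AGGAAG, searched on both strands, was present in 8 of the 9 windows, the exception being Cd8a, and in 34.5% of all 33469 windows. The E-box CAGGTG was in 5 of the 9 windows (18.8% of all), the RUNX core TGTGGT in 2 (17.3%) and the GATA site AGATAA in 0 (11.6%), again on both strands. These matches describe the letters only, and none of the data bear on binding.

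Of the co-receptors, Cd8b had the widest spread and both CD8 chains peaked in another rat than Cd4. Cd4, the co-receptor of helper T cells, ranged from 516 normalized counts in control 8 through 980 to 1662 in control 4, with a mean of 1061 ± 324. Cd8a, the CD8 alpha chain, ranged from 1356 in control 8 through 2238 to 4034 in control 12 (2398 ± 684). Cd8b, the CD8 beta chain, which pairs with the alpha chain on cytotoxic T cells and on thymocytes, ranged from 377 in control 8 through 652 to 1553 in control 12 (710.6 ± 277). Control 12 was therefore the high library for both CD8 chains but not for Cd4, where it stood at 1106, and the next highest Cd4 value after control 4 was 1615 in control 6. The CV of Cd8b was 39.0%, the largest of the 10 genes, and 25.7% without control 12 (654 ± 168, n = 15). The second highest Cd8b value was 1094, in control 3.

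Of the kinases and the adaptor, Lck and Zap70 were lowest in control 8 and highest in control 4, and Lat was highest in control 12. Lck, the kinase carried by the co-receptors, ranged from 2103 in control 8 through 3434 to 5323 in control 4, with control 12 next at 4767 and a mean of 3433 ± 833. Zap70, the kinase recruited to the phosphorylated chains, ranged from 517 in control 8 through 887 to 1503 in control 4 (931 ± 240). Control 14 was second highest in Zap70 at 1337, and control 12, which led the CD3 genes, was below the median at 829. Lat, the adaptor, ranged from 1190 in control 6 through 1623 to 2445 in control 12, with control 4 next at 2289 (1735 ± 402).

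**Figure D1:**
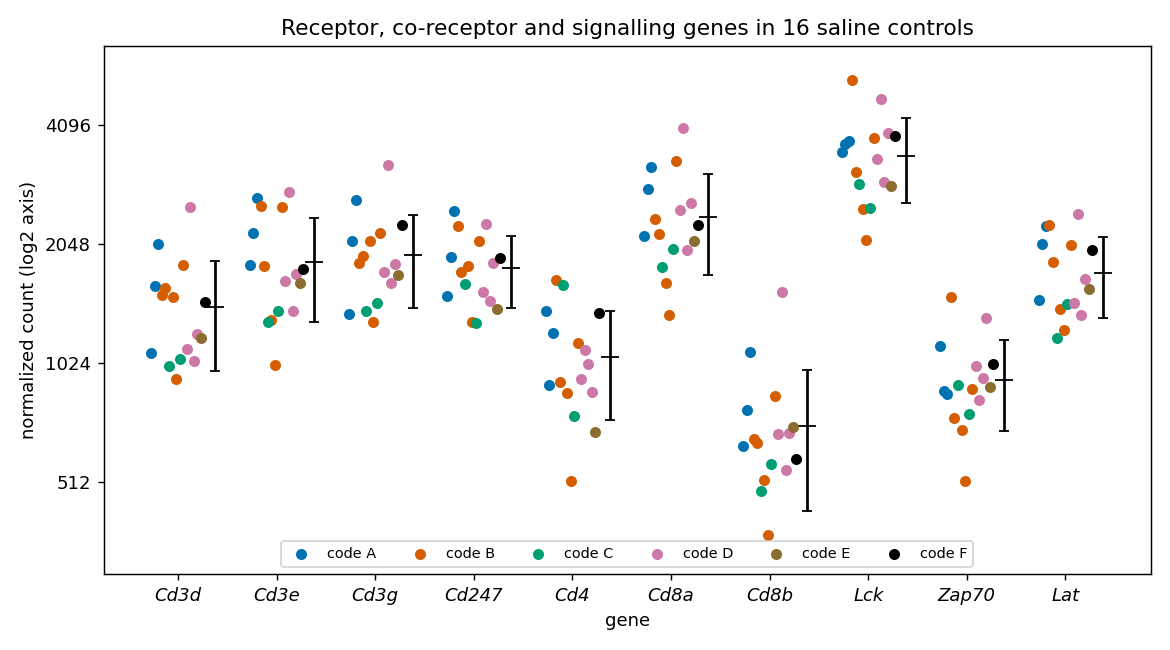
Normalized counts of the 10 genes (log2 axis) in the 16 saline controls, coloured by the code in the file name, lettered A to F here. The mean and SD are a bar on the right of each gene. Cd8b has a single high point, control 12 at 1553, above a second value of 1094.

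Counted over the 10 genes, control 12 held the highest value in 6, control 4 in 3 and control 3 in 1, and control 8 held the lowest in 8. The median CV of the 10 genes was 27.6%, beside a median of 25.0% over the 2429 genes whose mean lay in the same range, and it was 24.3% without control 12. The 6 genes that peaked in control 12 were Cd3d, Cd3e, Cd3g, Cd8a, Cd8b and Lat. The 8 measured thymocyte genes summed to 8040 normalized counts in that library and to 690 to 1338 in the others. Of the 10 other listed T-cell genes, such as Cd28 and Il7r, 0 were highest there. Their sum was still above the median in control 12, at 16592 against 14169, and was highest in control 4, at 23443. Of the NK cell, monocyte, B cell, neutrophil, erythroid and platelet genes, 0 were highest in control 12. Of the 45 measured genes of the wider signalling pathway, 4 were highest in control 12, namely Sit1, Nfatc3, Icos and Sla2 (Icos at 391, with the next library at 350). The share of all genes that were highest in control 12 or lowest in control 8 is not given here, so these counts have no background beside them. The part of the thymocyte genes in the levels of the 6 genes was not tested.

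**Figure D2:**
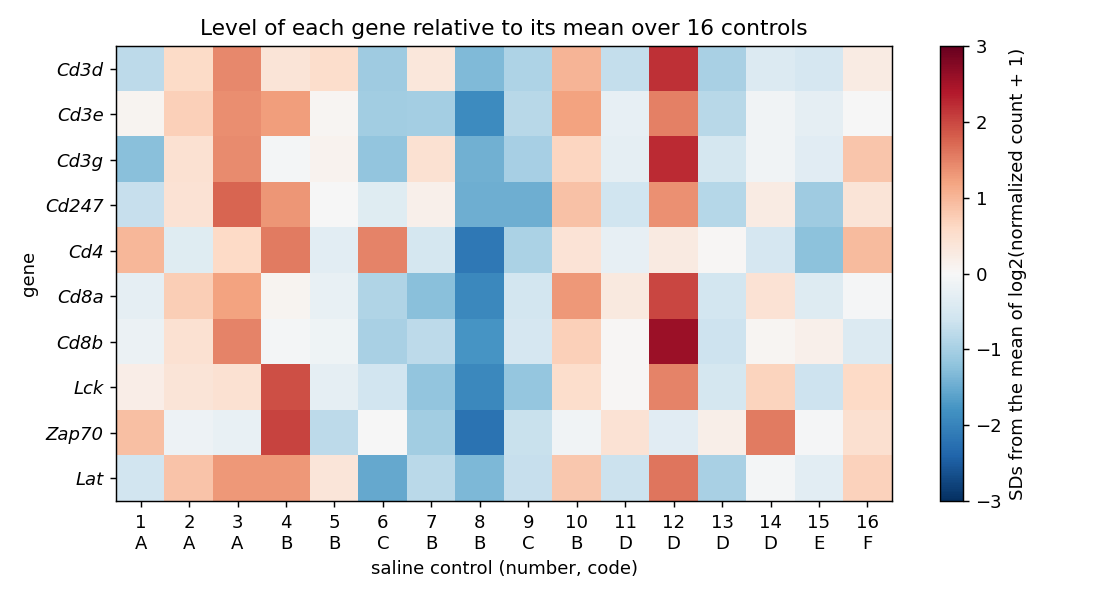
Level of each gene in each library, as SDs from the mean of its log2(normalized count + 1), with control number and code letter below. Control 8 is blue in every row, and control 12 is red in most rows but not in Zap70. Control 4 is red for Cd4, Lck and Zap70 and, less strongly, for Cd3e, Cd247 and Lat.

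To ask whether the genes rose and fell together, Pearson r of log2(normalized count + 1) was computed over the 16 rats for all 45 pairs, with 2-sided permutation tests adjusted by Benjamini-Hochberg over the 45 relations. Of these, 32 had an adjusted p under 0.05, all with a positive r, and the median r was 0.748. By Spearman's rho the count was 31. It was 32 without control 12 (median r 0.702) and 28 without control 8 (median r 0.695). An r of at least 0.7 was reached by 26 of the 45 pairs (57.8%), and by 7.41% of the 2924571 pairs of genes of like level, whose median r was 0.030. All pairs share the size factors and the cell makeup of their libraries. Scaled by total count in place of size factors, all 45 pairs passed, with a median r of 0.895.

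The 2 pairs with the highest r were each made of subunits of one complex. Cd3d and Cd3g, neighbours on the chromosome, had an r of 0.946 (permutation p = 1e-05, the smallest that 100000 permutations can give, adjusted p = 6.43e-05) and a rho of 0.924 (p = 1e-05, adjusted p = 0.000112). Without controls 3 and 12, the libraries farthest from the median of Cd3d, the r was 0.887, and after centring within file codes, which leaves out the single libraries of codes E and F (n = 14), it was 0.982. Cd8a and Cd8b, also neighbours on chromosome 4, had an r of 0.942 (permutation p = 1e-05, adjusted p = 6.43e-05) and a rho of 0.924 (p = 1e-05, adjusted p = 0.000112). That r was 0.900 without controls 8 and 12 and 0.940 after centring. Cd3e and Lat, which lie on different chromosomes, were nearly as close, with an r of 0.933 (permutation p = 1e-05, adjusted p = 6.43e-05) and a rho of 0.944 (p = 1e-05, adjusted p = 0.000112). Without controls 8 and 12 that r was 0.919, and after centring 0.948. Cd3d and Cd3e, which are also adjacent, had an r of 0.838.

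Cd4 and Zap70 passed with fewer partners, though the difference between their r values and those of the others was not tested. Scaled by total count, all 45 pairs passed, so the difference in the number of partners depends on the scaling. The lowest r values stayed with these genes there, at 0.531 for Zap70 with Cd3d and 0.620 for Cd4 with Cd3g. The lowest r of a pair without Cd4 or Zap70 was 0.812, for Cd3d and Lck. Some of their own pairs were higher, such as Lck and Zap70 at 0.902. With size factors, Zap70 passed with 2 of its 9 partners and Cd4 with 3, whereas each of the other 8 genes passed with 7 to 9. Lck passed with all 9 partners, but with Cd3g (r = 0.606) no longer without control 12 (r = 0.503, adjusted p = 0.0716), without control 8 (r = 0.517, adjusted p = 0.0729) or after centring (r = 0.498, adjusted p = 0.0944). Zap70 had an r of 0.745 with Lck (permutation p = 0.00125, adjusted p = 0.00216) and a rho of 0.582 (p = 0.0202, adjusted p = 0.0303). Cd4 had an r of 0.672 with Lck (permutation p = 0.0042, adjusted p = 0.00675; rho 0.609, p = 0.014, adjusted p = 0.0217) and an r of 0.646 with Zap70 (permutation p = 0.00723, adjusted p = 0.0109; rho 0.579, p = 0.021, adjusted p = 0.0305). These 3 relations were weaker without controls 4 and 8, the libraries farthest from the median of the first gene named. Without both, r was 0.444 for Lck and Zap70 (permutation p = 0.11), 0.375 for Cd4 and Lck (p = 0.189) and 0.257 for Cd4 and Zap70 (p = 0.377). Leaving out the extremes of a gene also narrows its range. No relation was computed with control 4 alone left out. Without control 12 the same r values were 0.853, 0.702 and 0.658, and all 3 passed. Cd4 and Cd247 had an r of 0.573 (permutation p = 0.0206, adjusted p = 0.0289; rho 0.529, p = 0.0373, adjusted p = 0.0525), which was 0.533 without controls 3 and 9, and 0.462 without control 8, where it no longer passed (adjusted p = 0.119). At the other end, Zap70 had an r of 0.044 with Cd3d and 0.063 with Cd3g. Both turned negative by rho (-0.11 and -0.09). Scaled by total count both were positive and passed, with an r of 0.531 (permutation test, adjusted p = 0.0343) and 0.590 (adjusted p = 0.0174). Their direction thus depended on the setting, and none can be given for them. Cd4 and Cd8a, the co-receptors of the main T-cell classes, had an r of 0.373 (permutation p = 0.156, adjusted p = 0.194; rho 0.326, p = 0.217, adjusted p = 0.279).

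**Figure D3:**
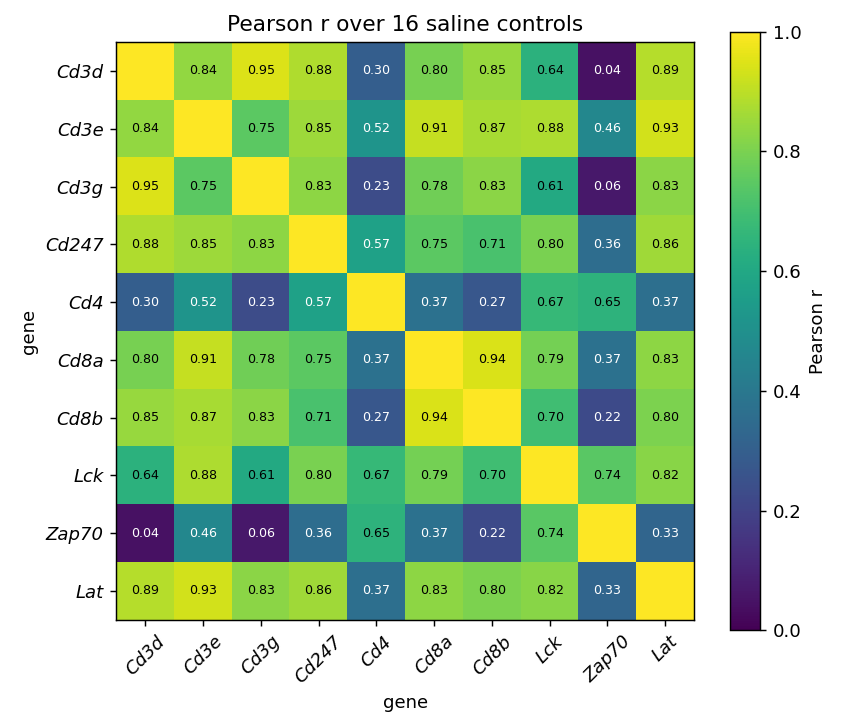
Pearson r of log2(normalized count + 1) between each pair of the 10 genes over the 16 saline controls. The rows of Cd4 and Zap70 are darker than the others, least so in their cells with Lck and with each other, and the Cd3d-Cd3g and Cd8a-Cd8b cells are the lightest at 0.95 and 0.94.

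Ratios of counts within a library do not depend on scaling and so show which genes kept a fixed proportion. Of the 8 ratios computed, Cd8b to Cd8a and Lat to Cd3e had the smallest spread, with SDs of 0.165 and 0.166 on the log2 scale. Cd8b to Cd8a was at 0.293 ± 0.036 (SD, n = 16), from 0.255 in control 10 to 0.385 in control 12. The next highest library was control 3 at 0.340, so control 12 lay above all others, and without it the ratio was 0.287 ± 0.027. Cd4 to Cd8a had the largest spread of the 8, at 0.464 ± 0.171, from 0.274 in control 12 to 0.897 in control 6, a 3.27-fold range. Control 6, where this ratio was highest, also had the lowest Lat. These ratios compare estimated counts that are not divided by transcript length, so they give no proportion of transcripts or cells.

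Against Cd3e, the adaptor Lat was the steadiest at 0.960 ± 0.114 (0.805 in control 10 to 1.23 in control 8), and Zap70 the least steady at 0.529 ± 0.140 (0.299 in control 12 to 0.777 in control 14). Lck to Cd3e was 1.90 ± 0.260, from 1.39 in control 3 to 2.28 in control 14, and Cd247 to Cd3e was 0.998 ± 0.171, from 0.824 in control 10 to 1.37 in control 7. Cd3d to Cd3e was 0.780 ± 0.136, from 0.594 in control 4 to 1.15 in control 7, and Cd3g to Cd3e was 1.07 ± 0.212, from 0.719 in control 4 to 1.59 in control 7. Control 7 was thus the highest library for 3 of the ratios to Cd3e, and its Cd3e value of 1316 was the third lowest.

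**Figure D4:**
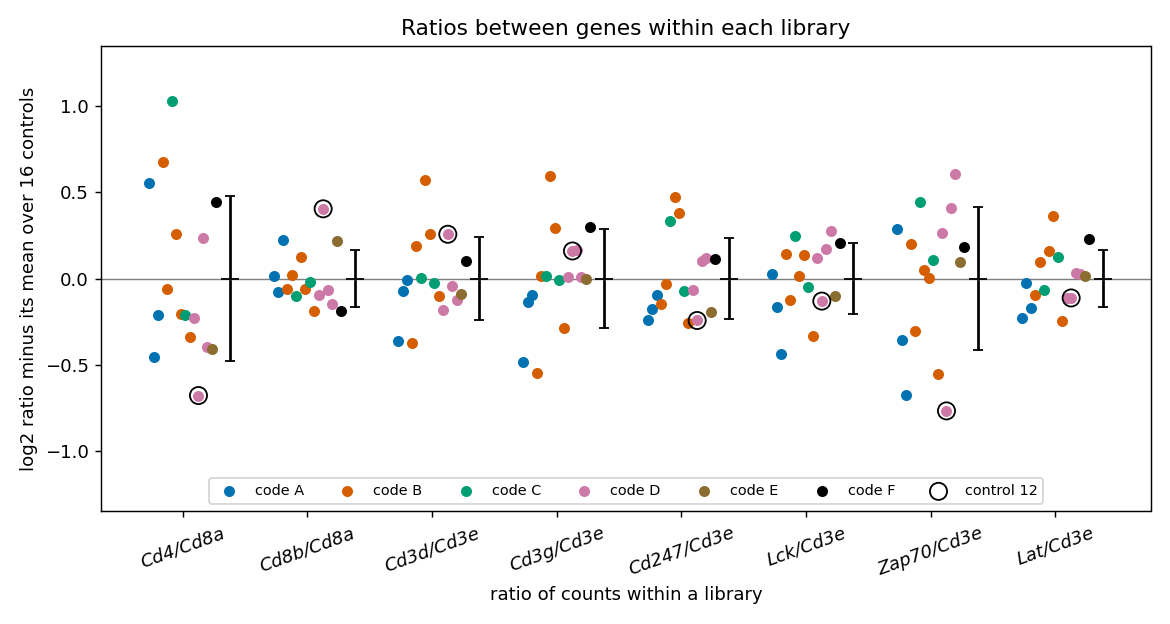
Log2 of each ratio of counts within a library, minus its mean over the 16 controls, coloured by code letter, with the SD as a bar and control 12 ringed. Cd8b/Cd8a and Lat/Cd3e spread least, and control 12 is the lowest library for Cd4/Cd8a and Zap70/Cd3e and the highest for Cd8b/Cd8a.

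The file names carry a code whose meaning the labels do not give, and it was used as a technical split only. The letters A to F were given to the codes here, in order of first appearance. Differences between codes and between the dated experiments cannot be told apart here. Codes A (controls 1 to 3), B (controls 4, 5, 7, 8 and 10) and D (controls 11 to 14) were compared, since the others hold 1 or 2 libraries. By edgeR's quasi-likelihood test with Benjamini-Hochberg adjustment over 12952 genes, 0 of the 10 genes differed in any of the 3 comparisons, and 0 did at an unadjusted p under 0.05. DESeq2 and limma-voom called 0 of the 10 as well. Over all genes, 0.0% were called between A and B, 0.0% between A and D, and 2.3% between B and D (298 genes, 293 of them lower in D). These shares over all genes were not stable: DESeq2 called 4.45%, 0.111% and 5.87%, and leaving out 1 library gave up to 3.93% between A and B and 0.0155% to 5.44% between B and D, the highest in both cases without control 4. At an unadjusted p under 0.05 the shares over all genes were 13.6%, 5.41% and 11.3%. The comparisons share libraries, so each stands beside the others and is no repeat of them. The largest differences among the 10 were those of the CD8 chains: Cd8b was at 0.52 ± 0.32 (log2 fold change ± SE, D minus B, edgeR adjusted p = 0.71) and Cd8a at 0.37 ± 0.28 (edgeR adjusted p = 0.83). Between A and B all 10 estimates were below 0, the lowest being Cd8b at -0.47 ± 0.34 (B minus A, edgeR adjusted p = 0.585). The median over the 10 genes was -0.16 there and that over all genes -0.03. Without control 8 the median of the 10 was -0.04 and 2 of the estimates were above 0, and without control 3, 3 were. The 10 genes are correlated, so their signs are not separate observations. For none of the 10 did the values of any 2 codes fail to overlap, which 6.08% (A and B), 6.78% (A and D) and 5.67% (B and D) of 15494 genes did. The ratios did not separate the codes either: the lowest p was 0.198 for Lck to Cd3e (exact permutation test of the sum of squares between codes, over 27720 assignments), and all 8 adjusted p-values were at least 0.633. With 3 to 5 libraries a code, differences of the sizes above could not be told from 0.

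**Figure D5:**
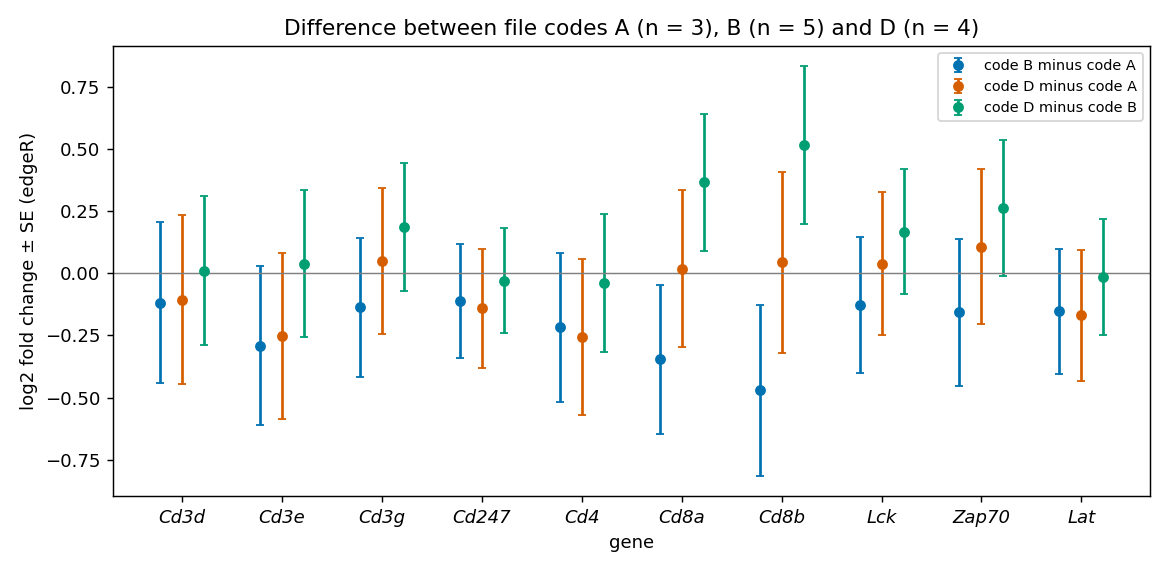
Log2 fold change with its SE (edgeR) for the 10 genes between code letters A (n = 3), B (n = 5) and D (n = 4). The estimates lie between -0.47 and 0.52, and the SE is larger than the size of the estimate in 26 of the 30.

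Because several of the genes are also used by other blood cells, each was set against the mean log2 level of 6 marker lists (NK cell, monocyte, B cell, neutrophil, erythroid and platelet), which makes 60 relations. Of these, 1 passed: Cd4 fell where the neutrophil list rose, with an r of -0.806 (permutation p = 0.00016, adjusted p = 0.0096) and a rho of -0.797 (p = 0.00047, adjusted p = 0.0282). Without controls 4 and 8 the r was -0.704 (permutation p = 0.00445), after centring within codes it was -0.797 (adjusted p = 0.169), and with control 8 alone left out the relation no longer passed (r = -0.731, adjusted p = 0.139). Scaled by total count the r was -0.519 (adjusted p = 0.218), so this call depends on the scaling. The other 9 genes had an r of -0.333 to -0.626 with the neutrophil list. Without control 6, whose summed neutrophil level of 35662 normalized counts was the lowest, 5 genes passed with that list (Cd3e, Cd247, Cd4, Lck and Lat), all negative.

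Relations to the other lists did not pass. The median r over the 10 genes was -0.05 with the NK cell list, with a range of -0.377 to 0.084. It was -0.47 with monocyte genes, 0.29 with B cell genes, -0.08 with erythroid genes and -0.42 with platelet genes. These medians depended on the scaling: by total count that with monocyte genes turned to 0.20 and that with NK cell genes to 0.36, and those with platelet, erythroid and neutrophil genes were -0.03, -0.16 and -0.33. Under total count scaling, 6 relations passed, all positive and all with the B cell list, namely those of Cd3e, Cd247, Cd4, Cd8a, Cd8b and Lck.

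Beyond the 10 genes, 45 of 47 listed genes of the wider pathway were measured. Between codes B and D, 1 of the 45 passed (2.3% of all genes did), namely Grap2, the adaptor GADS that links LAT to SLP-76. It was at -0.996 ± 0.207 (log2 fold change ± SE, D minus B, edgeR adjusted p = 0.0355), while between A and D it was at -0.16 ± 0.23 (edgeR adjusted p = 0.946) and between A and B at 0.84 ± 0.23 (B minus A, edgeR adjusted p = 0.133). This call was lost under total count scaling and without any 1 of controls 5, 7, 10, 11, 12, 13 and 14. Of the other 44 genes, 0 passed in any of the 3 comparisons by edgeR, and at an unadjusted p under 0.05 the counts over the 45 were 2, 0 and 2.

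The likeness of these pathway genes to the 10 was described by r with their mean standardized log2 level over the 16 libraries. An r of at least 0.7 was found for 12 of the 45 (26.7%), and for 5.26% of 8364 genes with a symbol and a mean of at least 100 normalized counts, the 10 themselves left out. They included surface molecules of T cells (Cd2 at 0.890, Cd5 at 0.846, Icos at 0.768 and Cd6 at 0.708), the kinase Txk (0.721), the phosphatase Ptpn22 (0.887), the adaptors Sit1 (0.879), Skap1 (0.799) and Lime1 (0.705), the lipid kinase Dgka (0.756) and the transcription factor Nfatc3 (0.819). At the other end, 8 of the 45 had an r of -0.5 or lower, close to the share of 18.1% among the 8364 genes. This count is therefore no trait of the pathway. The 8 genes included Grb2 (-0.743), an adaptor used by most cell types, Nck1 (-0.685), Vav1 (-0.672), a haematopoietic exchange factor, and the phosphatase Ptpn6 (-0.665). Without control 12, 15 of the 45 reached 0.7.

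Of the 8364 genes with a symbol and a mean of at least 100 normalized counts, those most like the mean level of the 10 were Cirh1a (r = 0.977), Tubgcp4 (0.950), Gimap6 (0.950), Rttn (0.935), Cdk2 (0.928), Fam189b (0.927), Tmem204 (0.925), Gimap7 (0.924), Cd27 (0.915) and Prps1 (0.909), over 16 libraries. Leaving out control 12 kept each of these at 0.903 or above. Gimap6 and Gimap7 are GTPases of lymphocytes and Cd27 is a co-stimulatory receptor of T cells. Taken singly and with the other members left out, Cd3d was closest to TCRB (0.986), a T-cell receptor beta entry, and Cd3g also to TCRB (0.911). Cd3e was closest to Gimap6 (0.952), Cd2 (0.951) and Trac (0.950), the receptor's alpha constant region. Lck was closest to Il27ra (0.932) and Cd27 (0.932), and Lat to Fam189b (0.947). Zap70, whose r with the CD3 genes was 0.044 to 0.461, was closest to Lef1 (0.906), a transcription factor of naive T cells, and Cd4 to Map2k7 (0.898). These correlations share depth and cell makeup, and are given as a description of the 16 libraries.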

How the data were processed

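Whole blood RNA of 16 rats, all in the group Saline Control, was measured by globin-depleted RNA sequencing. Per the labels and the methods, the authors called bases with CASAVA 1.8.2, aligned reads with Bowtie 0.12.9 to the Ensembl transcriptome of build rn5 and estimated gene counts with RSEM 1.2.0, which shares ambiguous reads among transcripts. The deposited values are these estimated counts without normalization. Their replacement of outlying values was not applied here. Estimated counts were rounded to whole numbers, and only the 18031 genes present in all 16 files entered the fits.

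Levels are counts over DESeq2 1.42.0 size factors. File codes were compared with edgeR 4.0.16 (R 4.3.3; TMM, filterByExpr, quasi-likelihood test, Benjamini-Hochberg adjustment), with DESeq2 and limma 3.58.1 as alternatives. Correlations used log2(normalized count + 1) and 100000 permutations (20000 for values without the 2 farthest libraries), and ratios an exact permutation test. The edgeR test and the correlation test were tried on simulated data. By edgeR, with 200 of 12952 genes changed between codes B and D, 70% of the 4-fold and 17% of the 2-fold changes were recovered, with 2 false calls. By the permutation test of correlations, p was under 0.05 for 5.11% of 900 unrelated pairs and 98% of 100 related pairs. Total counts of 21466776 to 31189549 put 3 counts at 0.0962 to 0.140 CPM, for counting error only. Every pair of libraries differed by more than sampling noise (lowest chi-square per degree of freedom 48.0). Named genes were the 10 members, genes on which a result turns, and the genes most like the members by r. The members and lists were chosen with earlier results of these data known. The order of the genes per transcript length was not computed, because lengths were not used here. One pathway gene's result is not reported here. Promoter windows and neighbours (protein-coding genes only) are from RefSeq GRCr8, to which all 10 genes matched.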

Additional observations from a re-analysis of the deposited data

Results flagged for a closer look

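In file code D (controls 11 to 14), 4 quantities had 1 library set apart from the other 3 by more than Dixon's 95% critical value, and in each it was control 12. Cd3d was at 2548 normalized counts there, with the nearest of the other 3 at 1214. Cd3g was at 3255 with the nearest at 1821, and Cd8b was at 1553 with the nearest at 683. The ratio of Cd8b to Cd8a was 0.385 with the nearest at 0.278. The test was run on 36 groups, the 10 genes and 8 ratios in codes B and D, of which chance alone flags about 1 in 20, and the genes are correlated. None was flagged in code B. Control 12 was also the library with the high thymocyte genes, with a summed level of 8040 normalized counts against 690 to 1338 in the others. Their part in the 4 values was not tested.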

How the results depend on the processing

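The count of the 10 genes called between file codes was 0 in each comparison under every alternative run (at an unadjusted p under 0.05 it was 2 between A and B and 3 between B and D under total count scaling), and 0 of the 8 ratios separated the codes under any. Over all genes tested, DESeq2 called 4.45% between A and B (563 genes), 0.111% between A and D (14) and 5.87% between B and D (742), and limma-voom called 0.054% between A and B (7). Between B and D the share of 2.3% (298) was 0.0463% under total count scaling (6), 1.16% with no filter on low counts (207) and 1.36% with only those 2 codes fitted (167). Leaving out 1 library gave 0 to 3.93% between A and B, the highest without control 4, 0 to 0.0150% between A and D and 0.0155% to 5.44% between B and D. The last was highest without control 4, at 0.0233% or less without 5, 11, 13 or 14, and at 0.211% without 12, 0.457% without 10, 0.737% without 7 and 1.53% without 2 or 3. Of the pathway genes, DESeq2 called 1 between A and B, where leaving out 1 library gave 0 to 1, and total count scaling called 0 between B and D, where leaving out 1 library gave 0 to 2. Total count scaling moved the median of all genes by -0.50 between A and B and by 0.53 between B and D.

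The number of the 45 pairs that passed was 28 to 34 with control 2, 6, 8 or 12 left out (28 without control 8), 30 after centring within codes and 45 under both total count scalings. Of the 32 pairs, 27 passed under all 11 alternatives, and those of Cd247 with Cd4, Cd3g with Lck, Cd4 with Lck, Cd4 with Zap70 and Lck with Zap70 did not. The sign changed for Cd3d and Zap70 (-0.0022 after centring, -0.115 by rho, -0.22 to 0.12 with 1 of these left out), for Cd3g and Zap70 (-0.0897 after centring, -0.0941 by rho, -0.218 to 0.146 likewise) and for Cd8b and Zap70 (-0.0744 to 0.392 likewise), the lowest value in each case without control 8. Scaled by total count, the r of Zap70 was 0.531 with Cd3d, 0.590 with Cd3g and 0.649 with Cd8b. The 11 alternatives did not include leaving out the 2 libraries farthest from the median of a gene. Without controls 8 and 12, left out in that way, Cd8b and Lck had an r of 0.471 (permutation p = 0.0888). That pair is among the 27. Relations to the cell type lists passed in 6 of 60 cases under total count scaling, in 8 when globin genes were left out of the totals, in 0 after centring and in 0 to 5 with control 2, 6, 8 or 12 left out (0 without control 8, 5 without control 6). Leaving out control 8 or 6, or controls 12 and 3 together, was chosen after seeing the data. The median CV of the 10 genes was 22.02% to 28.6% with libraries left out and 39.8% under total count scaling. The order of the genes per transcript length was not run. No paired analysis was possible because all samples belong to 1 group. Each of the 10 genes had at least 291 counts in every library. The number of libraries per code and the 1 group limit what could be compared.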
